A study of Mus musculus with 2 samples.

Results

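The miR-302 cluster, which includes Mir367, and the miR-290 cluster were examined in small RNA libraries of the mouse neural tube at embryonic day 13.5. The members were 10 miRNA genes of 1973 genes in the count tables. They were chosen by name and not by a rule on their counts, though earlier results of these data were known. They were Mir302b, Mir302c, Mir302a, Mir302d and Mir367 on chromosome 3, and Mir291a, Mir291b, Mir293, Mir294 and Mir295 on chromosome 7. The study holds 1 condition in 2 libraries, labelled as biological replicates of neural tube from healthy embryos of the strain B6NCrl. Each library comes from tissue of male and female embryos pooled together, and both tissue samples carry the same donor entry. The libraries hold RNA shorter than 30 bases and gave 7019469 same-strand counts on miRNA genes in replicate 1 and 5738209 in replicate 2.

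Both clusters are best known from pluripotent cells. The miR-290 cluster is switched on in the early embryo before implantation and is abundant in mouse embryonic stem cells and early germ cells. The miR-302 cluster follows in the epiblast and persists into early neuroectoderm, where loss of miR-302 in mice disturbs neural tube closure. Both encode miRNAs that promote the rapid cell cycle of pluripotent cells by repressing inhibitors of the G1 to S transition, and they fall as cells differentiate. A miRNA recognises its targets mainly through its seed, bases 2 to 8 of the mature strand. The comparison below asks how much of each cluster was left in a tissue rich in neural progenitors and young neurons.

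The mature 3p arms show why the clusters are read together. They are printed with the seed in capitals, from RefSeq on GRCm38.p6 (the assembly also called mm10), from which 19 mature arms of the 10 members, without miR-302a-3p, and 9 hairpins were used here.
miR-302b-3p: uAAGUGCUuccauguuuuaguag
miR-302d-3p: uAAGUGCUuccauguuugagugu
miR-302c-3p: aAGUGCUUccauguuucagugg
miR-291a-3p: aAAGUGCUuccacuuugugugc
miR-294-3p: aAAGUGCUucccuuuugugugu
miR-295-3p: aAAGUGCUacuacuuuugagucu
miR-291b-3p: aAAGUGCAuccauuuuguuugu
miR-293-3p: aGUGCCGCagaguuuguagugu
miR-367-3p: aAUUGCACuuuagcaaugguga
The seed AAGUGCU is shared by 3p arms of both clusters, miR-302b, miR-302d, miR-291a, miR-294 and miR-295, and no other mature sequence in the RefSeq table had it at bases 2 to 8. The miR-302c-3p entry begins 1 base later than those of miR-302b and miR-302d, so the same letters stand at bases 1 to 7 and its seed reads AGUGCUU. The 3p arms of miR-291b, miR-293 and miR-367 have seeds that no other member has. The letters AAGUGCU, searched as transcribed, were anywhere in 16 of 1738 mature sequences (0.921%) and in 24 of 1005 hairpins (2.39%).

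For Mir302a, the gene with the highest count of the 10, the hairpin is shown in place of the 3p arm, with AAGUGCU in capitals.
Mir302a hairpin: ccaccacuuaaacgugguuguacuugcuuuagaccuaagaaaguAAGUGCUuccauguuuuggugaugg
Among the 9 member hairpins, those of Mir302a and Mir302b shared a run of 20 bases. The 5p arms of miR-291a and miR-291b, 22 bases each, also shared a run of 20. Mir302d shared at most 17 bases and Mir302c at most 16 with another hairpin. Short or trimmed reads from a shared run cannot be placed on 1 gene of either pair. The tables appear to leave reads that map to several places out of all genes, so the counts of Mir302a, Mir302b, Mir291a and Mir291b may be too low, by an amount not measured here. None of the 19 mature arms searched, which did not include miR-302a-3p, lay whole within another of the 1005 hairpins, which did not include that of Mir291a.

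The genes of each cluster lie close together on 1 strand. Mir302b, Mir302c, Mir302a, Mir302d and Mir367 follow each other in that order on the plus strand at chr3:127545228-127545807 (mm10, gene annotation GENCODE M21), a span of 580 bp with gaps of 43 to 65 bp. All 5 lie in an intron of Larp7, which is on the minus strand and encodes an RNA-binding protein of the 7SK complex. The 5 members of the other cluster lie on the plus strand at chr7:3218919-3220841, a span of 1923 bp with gaps of 48 to 782 bp, opposite annotated exons of Nlrp12. Neither host gene is transcribed in the direction of the miRNAs, and no member had an opposite-strand count in either library.

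The miR-302 genes were present at low but clearly countable levels, and the miR-290 cluster was near the lower limit of the libraries. In CPM (the count scaled to a same-strand total of 1000000), the miR-302 members together held 285.8 CPM in replicate 1 (2006 counts, exact Poisson 95% interval 273 to 299) and 373 CPM in replicate 2 (2142 counts, 358 to 389). Their mean was 330 ± 61.9 CPM (SD, n = 2), or 0.0330% ± 0.0062 of all counts. The miR-290 members together held 6.41 CPM in replicate 1 (45 counts, 4.68 to 8.58) and 12.4 CPM in replicate 2 (71 counts, 9.66 to 15.6), a mean of 9.39 ± 4.22 CPM. The intervals cover counting error only: the reads carry no molecular identifiers, and copies of 1 molecule cannot be recognised. The 2 clusters were far apart in both libraries, and neither the libraries nor the intervals overlapped between them. In tissue, fewer cells that express a miRNA and less of it per cell cannot be told apart.

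The ratio between the clusters was large in each library. The miR-302 counts exceeded the miR-290 counts 44.6-fold in replicate 1 (exact 95% interval 33.2 to 61.3) and 30.2-fold in replicate 2 (23.8 to 38.8). The log2 ratio was lower in replicate 2, with a difference of -0.56 whose exact 95% counting interval, -1.14 to 0.0036, only just includes 0. On the log2 scale the ratio was 5.48 and 4.92, a mean of 5.20 ± 0.40 (SD, n = 2), or 36.7-fold, so the gap was much larger than the spread of the 2 libraries. An exact two-sided sign-flip test over 2 libraries cannot give a p below 0.5, and no test was made. The ratio compares reads of different miRNAs, whose ligation and amplification in library preparation differ. Without both Mir302a and Mir293, the highest member of each cluster, the ratio was 5.84 on the log2 scale. Mir293 made up 60% and 63.4% of its cluster's counts in replicates 1 and 2, and Mir302a 38.9% and 41.6%. Leaving out both could therefore only raise the ratio, and leaving out Mir302a alone was not tried.

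**Figure D1:**
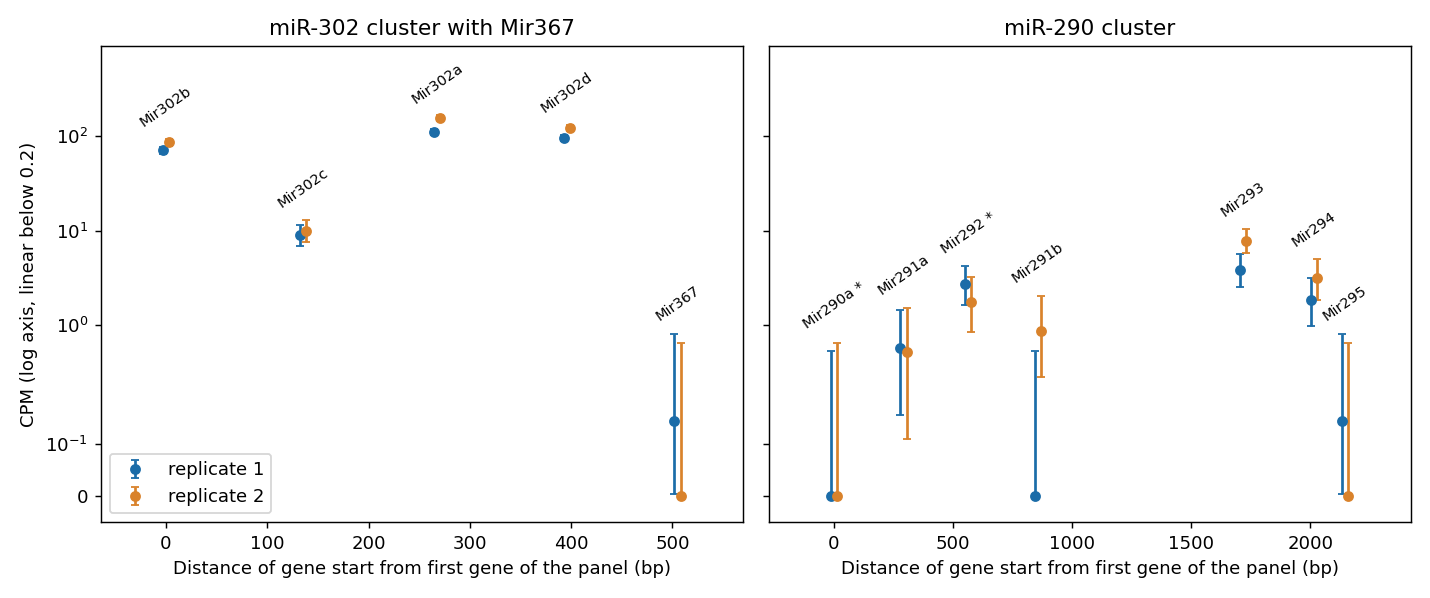
Level of each gene in CPM (log axis, linear below 0.2) against the distance of its start from the first gene of the panel in bp, with points for the 2 libraries and exact Poisson 95% intervals. Mir302a, Mir302d and Mir302b stand between 70.5 and 155 CPM, Mir302c at 8.98 and 9.93, and Mir367 at 1 and 0 counts, while the miR-290 cluster stays below 8 CPM; asterisks mark Mir290a and Mir292, which are not among the 10 members.

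Of the 10 members, 6 had at least 10 counts in each library, 4 of the miR-302 genes and 2 of the miR-290 cluster. Over all genes of the table this held for 371 of 1973 (18.8%). All 10 members had at least 1 count in the 2 libraries together, as had 726 of all 1973 genes. Of the members, 7 had counts in both libraries, a share not computed over all genes. A single count stood for 0.142 CPM in replicate 1 and 0.174 CPM in replicate 2.

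Within the miR-302 cluster, 3 genes held nearly all counts. Mir302a had 780 counts in replicate 1 (111 CPM, 103 to 119) and 892 in replicate 2 (155 CPM, 145 to 166), a mean of 133 ± 31.3 CPM. Mir302d had 667 counts (95.02 CPM, 87.9 to 103) and 702 counts (122 CPM, 113 to 132), a mean of 109 ± 19.3 CPM. Mir302b had 495 counts (70.5 CPM, 64.4 to 77.0) and 491 counts (85.6 CPM, 78.2 to 93.5), a mean of 78.0 ± 10.6 CPM. The order Mir302a, Mir302d, Mir302b was the same in both libraries, and each step was beyond counting error within each library. The smallest step, Mir302a over Mir302d, was 1.17-fold in replicate 1 (exact 95% interval 1.05 to 1.30) and 1.27-fold in replicate 2 (1.15 to 1.40). As means over 2 libraries, the values of Mir302a and Mir302d differed by less than the SD of Mir302a.

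Mir302c, which lies between Mir302b and Mir302a on the chromosome, was far lower than its neighbours. It had 63 counts in replicate 1 (8.98 CPM, 6.90 to 11.5) and 57 in replicate 2 (9.93 CPM, 7.52 to 12.9), a mean of 9.45 ± 0.68 CPM. Mir302a exceeded it 12.4-fold in replicate 1 (9.57 to 16.3) and 15.6-fold in replicate 2 (12.0 to 20.8). Mir302b, the neighbour on the other side, exceeded it 7.86-fold (6.04 to 10.4) and 8.61-fold (6.54 to 11.5). Its 3p arm is the one whose RefSeq entry starts 1 base later, as printed above. Counts per gene do not separate the 5p from the 3p arm.

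Mir367, the last gene of the cluster and the only one without the AAGUGCU letters, was at the limit of detection. It had 1 count in replicate 1 (0.142 CPM, exact 95% interval 0.0036 to 0.794) and 0 in replicate 2 (0 to 0.643). Taken as at most 3 counts, a count of 0 allows up to 0.523 CPM in replicate 2. In replicate 1, Mir302a exceeded Mir367 780-fold, with a counting interval of 140 to 30847. In replicate 2, set against 3 counts in that library, Mir302a was 297-fold higher and Mir302d 234-fold higher. The exact 95% lower limits of these 2 ratios in replicate 2 were 241-fold and 190-fold. The hairpin of Mir367 shared no run longer than 11 bases with another miRNA hairpin in RefSeq.

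The make-up of the cluster was similar in the libraries. Mir302a made up 38.9% of the miR-302 counts in replicate 1 (Wilson 95% interval 36.8 to 41.0) and 41.6% in replicate 2 (39.6 to 43.7). The share of Mir302d was 33.3% (31.2 to 35.3) and 32.8% (30.8 to 34.8). For Mir302b it was 24.7% (22.8 to 26.6) and 22.9% (21.2 to 24.8), and for Mir302c 3.14% (2.46 to 3.998) and 2.66% (2.06 to 3.43). The intervals of the 2 libraries overlapped for each of these 4 genes. The shift in make-up was not tested.

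The miR-290 cluster was carried by Mir293 and Mir294. Mir293 had 27 counts in replicate 1 (3.85 CPM, 2.53 to 5.60) and 45 in replicate 2 (7.84 CPM, 5.72 to 10.5), a mean of 5.84 ± 2.83 CPM. Its 3p seed, GUGCCGC, is not the shared one. Mir294, which carries the shared seed and is among the cluster's main regulators of the stem cell cycle, had 13 counts (1.85 CPM, 0.986 to 3.17) and 18 counts (3.14 CPM, 1.86 to 4.96), a mean of 2.49 ± 0.91 CPM. Mir293 exceeded Mir294 2.08-fold in replicate 1 (1.04 to 4.38) and 2.50-fold in replicate 2 (1.42 to 4.59). Together they left few counts to the other members.

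Mir291a, also with the shared seed, had 4 counts in replicate 1 and 3 in replicate 2. Mir291b had 0 and 5 counts, and Mir295 had 1 and 0. A count of 0, taken as at most 3 counts, allows up to 0.427 CPM in replicate 1 and 0.523 CPM in replicate 2. The levels of these 3 genes could therefore not be ordered. In order of mean CPM, Mir302c stood next above Mir293. It was 2.33-fold higher in replicate 1 (1.46 to 3.81) but only 1.27-fold in replicate 2, with an interval that includes equal levels (0.842 to 1.92). The lowest well-counted miR-302 gene and the highest miR-290 gene therefore differed beyond counting error in replicate 1 only.

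Of the other genes of the miR-290 cluster, Mir290a and Mir292 were in the tables and Mir290b and Mir292b were not analysed here. Mir292, the source of miR-292a, had 19 and 10 counts, a mean of 2.22 ± 0.68 CPM, and could not be ordered against Mir294 (ratio of Mir294 to Mir292 0.684, 0.311 to 1.46, in replicate 1, and 1.80, 0.788 to 4.36, in replicate 2). Mir290a had 0 counts in both. With these 2 genes the cluster reached 11.6 ± 3.53 CPM.

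**Figure D2:**
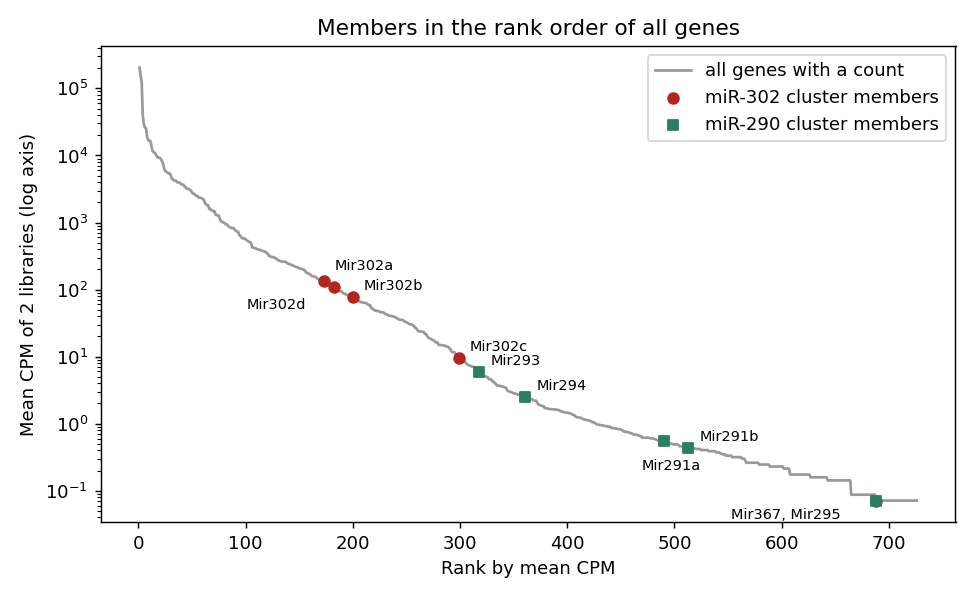
Mean CPM of the 2 libraries (log axis) against rank for all 726 genes with a count (grey line), with the members as points. Mir302a, Mir302d and Mir302b hold ranks 173, 182 and 200, Mir302c and Mir293 ranks 299 and 318, and Mir367 and Mir295 share rank 688.

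In the order of all 726 genes with at least 1 count, Mir302a held rank 173, Mir302d rank 182 and Mir302b rank 200, followed by Mir302c at 299, Mir293 at 318 and Mir294 at 361. Mir302a stood between Mir375 (133.7 ± 4.18 CPM) and Mir700 (131 ± 3.33 CPM), with Mir223, a myeloid miRNA, at 140.1 ± 23.1 CPM and Mir135a-2 at 128 ± 18.5 CPM as the next on either side. Mir293 stood among Mir208a at 6.05 ± 3.13, Mir3059 at 5.95 ± 2.18, Mir3058 at 5.75 ± 0.74 and Mir147 at 5.72 ± 1.18 CPM. These neighbours were chosen as the nearest in mean CPM, so their closeness to Mir302a and Mir293 is given by the choice. The median of the members' mean levels was 4.17 CPM and that of all 1973 genes was 0 CPM, since 1247 genes had no count in either library.

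The miR-17 family was far more abundant than the miR-302 genes, and the genes with the seed of miR-367 were far more abundant than Mir367. The miR-17 family, products of the miR-17-92 clusters and their paralogs that promote proliferation in many embryonic tissues, carries the same letters shifted by 1 base, and miR-92b-3p shares the seed of miR-367, as the following mature sequences show.
miR-17-5p: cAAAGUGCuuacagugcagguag
miR-92b-3p: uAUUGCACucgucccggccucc
The 6 genes of the miR-17 seed (Mir17, Mir20a, Mir20b, Mir93, Mir106a and Mir106b) together held 40385 CPM in replicate 1 and 45822 CPM in replicate 2, 141-fold and 123-fold the level of the 4 miR-302 genes. Mir17 alone was at 19154 ± 661 CPM, and even the lowest, Mir20b, at 407 ± 37.9 CPM, exceeded the whole miR-302 cluster in mean. All 6 passed 10 counts in each library.

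The seed AUUGCAC of miR-367 is also encoded by other genes. The 6 genes that share it, Mir25, Mir32, Mir363, Mir92b and both copies of miR-92a, held 5048 and 4716 CPM together, against 1 count and 0 counts of Mir367. Mir92b led at 2704 ± 248 CPM, and Mir92-1, a miR-92a copy of the miR-17-92 cluster, followed at 1286 ± 21.3 CPM. Mir363 was at 384 ± 12.6, Mir25 at 305 ± 3.69, Mir32 at 121 ± 19.0 and Mir92-2 at 83.0 ± 1.07 CPM. Reads of miR-92a, whose mature sequence is the same in both copies, may be missing from both. Counts per gene do not separate the arms, so how many of the reads of these genes carry the seed was not measured. Mir350, whose 5p arm shares the seed of miR-291b-3p, was at 425.3 ± 0.10 CPM. Mir290a and Mir292, whose 5p arms share the seed CUCAAAC of miR-293-5p, were at 0 and 2.22 CPM, below Mir293 at 5.84 CPM.

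**Figure D3:**
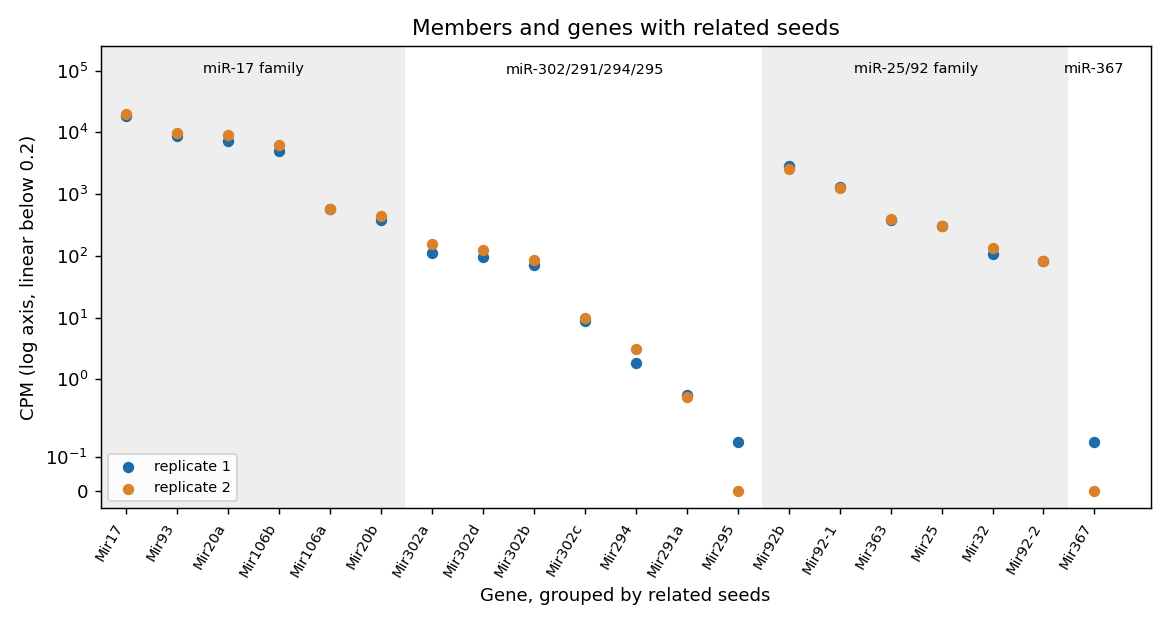
CPM in each of the 2 libraries (log axis, linear below 0.2) for the members with the AAGUGCU letters and Mir367, beside genes of the miR-17 and miR-25/92 families (shaded). Each miR-17 family gene stands above each miR-302 gene, and the 6 genes that share the seed of miR-367 lie above 80 CPM while Mir367 is at 1 and 0 counts.

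Between the libraries, the miR-302 cluster was higher in replicate 2, by a modest amount. The log2 difference, replicate 2 minus replicate 1, of the cluster's summed counts scaled to the library total was 0.39 (exact 95% counting interval 0.30 to 0.47), or 1.31-fold. Of the 4 miR-302 genes with at least 100 counts summed, Mir302a differed by 0.48 (0.34 to 0.62), Mir302d by 0.36 (0.21 to 0.52), Mir302b by 0.28 (0.10 to 0.46) and Mir302c by 0.15 (-0.40 to 0.69). For 3 of the 4 the interval lay above 0. Over all 306 genes with at least 100 counts summed this held for 107 (35%), with a median difference of 0.04, against 0.32 for the 4 members. None of the 4 passed a log2 difference of 0.5 either way, which 26 of the 306 genes (8.5%) did. With 1 library on each side the difference has no replicate check, and the 4 genes, within 580 bp on 1 strand, are not independent of each other.

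**Figure D4:**
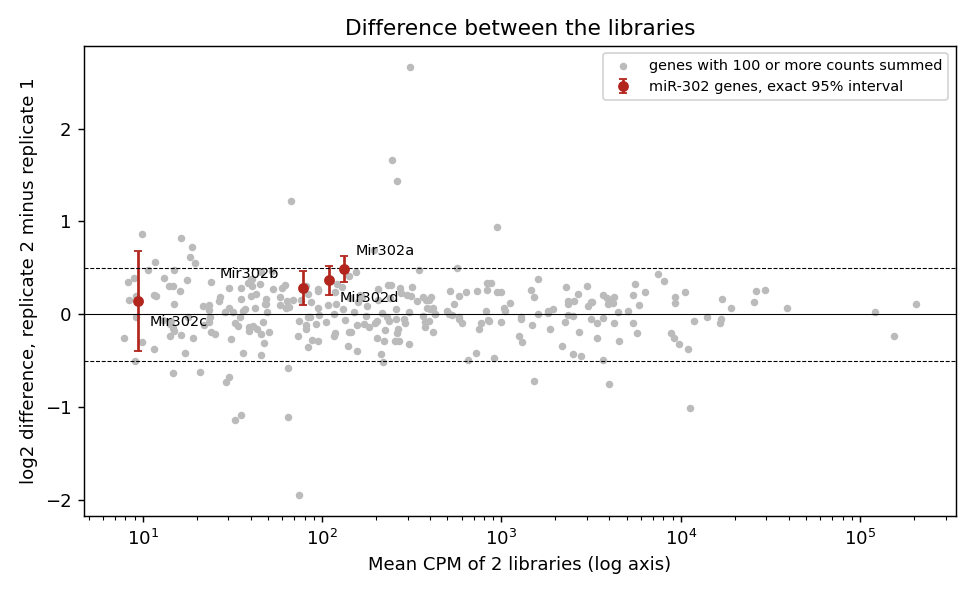
The log2 difference between the libraries against mean CPM (log axis) for the 306 genes with at least 100 counts summed (grey), with the miR-302 genes and their exact 95% counting intervals in red. The 4 miR-302 genes lie above 0 and below the dashed line at 0.5. Of all 306 genes, 171 lie above 0.

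The miR-290 cluster was also higher in replicate 2, by 0.94 (0.39 to 1.52) over its 116 counts. It exceeded the difference of the miR-302 cluster by 0.56 (exact 95% counting interval -0.0036 to 1.14), which is at the edge of counting error. Mir293 alone differed by 1.02 (0.31 to 1.77) and Mir294 by 0.75 (-0.35 to 1.91). The cluster difference was 0.63 (0.14 to 1.13) once Mir290a and Mir292 were added, as Mir292 had the higher count in replicate 1.

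Neural tube miRNAs were set beside the tissue label, and other tissues' miRNAs beside the difference between the libraries. The lists were chosen with earlier results of these data known, so they are no independent check of the label. Of 9 listed neural tube genes in the tables, 6 had at least 10 counts in each library, against 371 of all 1973 genes (18.8%). The 6 were Mir10a, Mir10b, Mir196b, Mir9-3, Mir137 (5025 and 5168 CPM) and Mir124a-2 (31 and 15 counts). Those below were Mir9-2 (9 and 3 counts), Mir124a-1 (14 and 8) and Mir124a-3 (1 and 0), all genes with further copies. In the same direction as the miR-302 genes, the summed level of 3 skeletal muscle genes in the tables was 119 and 378 CPM, nearly all from Mir206 (117 and 373 CPM), that of 7 epithelial genes 607 and 865 CPM, and that of 5 mesenchymal genes 8451 and 10428 CPM. In the other direction, 5 blood genes summed to 259.6 and 195 CPM and 3 liver genes to 226 and 136 CPM, while the endothelial Mir126a was at 17134 and 16019 CPM. Some genes went against the sum of their list. Lower in replicate 2 were the epithelial Mir200b (15.5 and 13.9 CPM), the mesenchymal Mir145a (79.9 and 67.8 CPM) and the muscle Mir1a-1 (3 and 0 counts). The epithelial sum rose mostly through Mir203 (466 and 659 CPM) and Mir205 (40.2 and 93.4 CPM). The liver sum fell mostly through Mir122 (118 and 30.7 CPM), while Mir192 was slightly higher (61.5 and 64.5 CPM). No gene of these lists in the tables was at 0 in both libraries, and Mir1a-2 and Mir9-1 were not analysed here. Their part in the difference of the miR-302 and miR-290 genes was not tested.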

How the data were processed

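Small RNA of mouse neural tube was counted in 2 libraries of 1 group. The authors deposited raw read counts for each miRNA gene, made on mm10 with the M4 annotation, per the file headers; aligner and counter are not named in the sources used here. Each table has 3 count columns without a header and 4 summary lines. The columns were taken as unstranded, same-strand and opposite-strand from the values, the last holding 100058 and 85834 gene counts. In replicates 1 and 2 the summary lines hold 28.5% and 31.0% multimapping, 17.4% and 12.2% unmapped and 2.95% and 3.10% unassigned reads of 13739569 and 10685196. They were left out of totals.

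Same-strand counts were divided by the same-strand total (CPM). Names came from GENCODE M21 (1894 of 1973 identifiers matched). Log2 differences used a pseudocount of 0.5. No model across genes was fitted, as there is 1 group. Labels do not say whether the samples came from separate litters. Intervals were computed with scipy 1.17.1 (Python 3.11.15) and tested on simulated data. TMM (edgeR 4.0.16), DESeq2 1.42.0 size factors, the unstranded column, other minimums and pseudocounts, and each library alone were alternatives.

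Members and lists were chosen with earlier results of these data known. Genes named beyond the members were those with a member's seed, listed seed relatives, the nearest 2 in level on either side of Mir302a and Mir293, and listed tissue markers.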

Additional observations from a re-analysis of the deposited data

How the results depend on the processing

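Of 125 values under alternative settings, 114 moved by less than the replicate SD, the counting interval or, for counts of genes, 1.5 times, and none reversed. Part of this tally was fixed in advance. With 2 libraries, the level or ratio of each library alone always lies within the SD of the mean. The mean per member gene equals the main ratio, as each cluster has 5 members. Levels and counts of genes had no rule by which they could reverse. A log2 difference between the libraries could reverse only where it was over 0.5 either way. Those of the miR-302 cluster and its single genes were not. With Mir10a left out of the total, the miR-302 level was 415 CPM, as the total is smaller, and 5 single members moved likewise. Without the highest member of each cluster the log2 ratio of the clusters was 5.84. At a minimum of 100 counts in each library 3 members were detected in place of 6. Genes called between the libraries numbered 9 of 306 at a log2 threshold of 1, in place of 26 of 306. They numbered 101 of 455 with at least 10 counts summed and 315 of 726 with no filter. The libraries taken singly gave a log2 ratio of 4.92 to 5.48, and levels of 286 to 373 CPM for miR-302 and 6.41 to 12.4 CPM for miR-290. The mean per gene with Mir290a and Mir292 added was chosen after seeing the data. No paired analysis was possible because the study holds 1 group. Depth limits Mir367, Mir291a, Mir291b and Mir295, with 7 counts or fewer summed.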
